A study of Mus musculus with 12 samples.

Results

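Npm2 and 7 genes of the replacement histone system (H1foo, H3f3a, H3f3b, H2afz, H2afx, H2afj and Hira) were followed in mouse oocytes in which the N-glycosylation enzyme DPAGT1 was mutated or deleted. The 8 members were taken by symbol from the 24255 genes of the deposited expression table, and all 8 were found. RNA-Seq had been run on 12 libraries of 20 oocytes each, 3 libraries per group, from C57BL/6 females aged 3 weeks, 46 h after priming with 5 IU of PMSG, a gonadotropin that drives follicle growth. WT oocytes carried normal Dpagt1. MUT oocytes came from D166G females, which carry an ENU-induced missense change of Dpagt1 in every cell. GcKO oocytes were Dpagt1F/F Gdf9CRE/+, with a Cre recombinase that the Gdf9 promoter drives in the oocyte, and AmcKO oocytes were Dpagt1F/F Amhr2CRE/+, with a Cre expressed from the Amhr2 locus in granulosa cells, so that the oocyte itself is not the target of deletion. GcKO and AmcKO females share the floxed allele, which WT and MUT females do not have. No label says which animals gave the oocytes of a library, so the spread between libraries may be technical in part.

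Replacement histones are made outside S phase from polyadenylated messages and take the place of the replication-coupled histones in chromatin, which makes them the main histone supply of a cell that does not divide. A growing oocyte stores them with their chaperones: H1FOO is the oocyte's own linker histone, H3.3 is put into chromatin without DNA synthesis by the HIRA complex, and the H2A variants mark promoters and breaks. NPM2, an oocyte nucleoplasmin that binds H2A-H2B, organizes nucleolar chromatin in the oocyte and sperm chromatin after fertilization, and together these proteins serve the embryo before its own genome is active.

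The genes are spread over the genome (GRCm38, which is mm10). H3f3a (chr1:180800832-180813943, minus strand) and H3f3b (chr11:116021912-116027962, minus strand) code for the same protein, histone H3.3, from separate messages. Of the 408 coding bases without the stop codon, 95 differed between the reference transcripts, and the longest run shared by the 2 transcripts was 23 bases. The first 120 coding bases of each are shown, with the 24 bases that differ in capitals, because the 2 messages can be told apart by sequencing only through such bases.
H3f3a: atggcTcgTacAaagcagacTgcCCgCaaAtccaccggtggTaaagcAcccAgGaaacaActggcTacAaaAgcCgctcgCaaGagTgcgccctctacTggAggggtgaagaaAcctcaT
H3f3b: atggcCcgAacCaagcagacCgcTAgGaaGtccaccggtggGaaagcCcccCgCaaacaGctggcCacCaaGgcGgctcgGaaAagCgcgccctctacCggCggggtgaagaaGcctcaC

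H2afx (chr9:44334694-44336077, plus strand) differs from the other members at its 3′ end. A match to the histone stem-loop, the element that ends replication-coupled histone messages, was found after the stop codon in H2afx and in none of the other 7 reference transcripts. It starts at base 47 after the stop codon and ends 822 bases before the end of the annotated transcript, which also has a polyadenylation signal. Transcript bases 540 to 569 of H2afx are shown with the stem-loop in capitals.
H2afx: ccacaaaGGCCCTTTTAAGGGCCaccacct
H2afx is also the gene that follows Dpagt1 (chr9:44326019-44333900) on the same strand, with 793 bases between them.

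The promoters of H1foo, H3f3a and H3f3b, the 3 most abundant members, are given as the 250 bases before the RefSeq start site in GRCm38. Capitals mark matches on either strand to the CCAAT box (letters CCAAT), the TATA box (letters TATAAA), a motif that NOBOX is known to bind (letters TAATTG) and the E-box (letters CANNTG, which also cover CAATTG). H1foo (chr6:115944681-115944930, plus strand) had 2 CCAAT boxes and 1 E-box, H3f3a (chr1:180813606-180813855, minus strand) had 1 CCAAT box, and H3f3b (chr11:116024505-116024754, minus strand) had 4 CCAAT boxes, 1 TATA box and 1 E-box. The stretches of H3f3a and H3f3b lie inside the gene spans given above, which come from GENCODE. Their RefSeq start sites thus differ from the outermost GENCODE starts.
H1foo: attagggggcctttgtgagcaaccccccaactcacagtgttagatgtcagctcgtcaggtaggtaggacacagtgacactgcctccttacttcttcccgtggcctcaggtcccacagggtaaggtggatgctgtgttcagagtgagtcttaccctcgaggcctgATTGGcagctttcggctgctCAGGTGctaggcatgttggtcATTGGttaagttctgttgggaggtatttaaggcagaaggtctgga
H3f3a: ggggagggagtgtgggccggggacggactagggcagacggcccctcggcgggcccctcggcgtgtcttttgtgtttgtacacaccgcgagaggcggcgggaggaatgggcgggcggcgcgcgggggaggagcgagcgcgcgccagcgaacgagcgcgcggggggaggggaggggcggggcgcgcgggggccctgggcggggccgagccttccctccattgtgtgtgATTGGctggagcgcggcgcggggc
H3f3b: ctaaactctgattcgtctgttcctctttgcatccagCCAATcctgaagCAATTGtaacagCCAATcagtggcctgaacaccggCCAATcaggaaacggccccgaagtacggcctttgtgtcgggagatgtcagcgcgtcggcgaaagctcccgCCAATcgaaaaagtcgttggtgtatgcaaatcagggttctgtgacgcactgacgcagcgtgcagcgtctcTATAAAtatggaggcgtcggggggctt
Among 32851 RefSeq promoters, 33.8% held the CCAAT box, 12.4% the TATA box, 7.17% the NOBOX motif and 66.2% the E-box in the same 250 bases. These matches describe letters only. RefSeq promoters were found for 6 of the 8 members. Those of Npm2 and H2afx were not found.

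Levels are FPKM, fragments per kilobase of transcript and per number of fragments mapped in the library, which are per length and so can be compared between genes, and how many fragments lie behind a value is unknown. FPKM summed to 1167362 to 1226005 in the WT libraries, 883256 to 1107925 in AmcKO, 589617 to 611597 in MUT and 482314 to 684212 in GcKO. Genes above 0 numbered 9359 to 9622 in WT, 10399 to 10921 in AmcKO, 11208 to 11467 in MUT and 10733 to 11608 in GcKO. When each library was divided by MUT replicate 2, the ratio most often seen among low genes, shared by 11.8 to 21.0% of them, lay between 2.28 and 2.66 for WT and between 0.901 and 1.51 for the other libraries. If it gives the relative worth of 1 fragment, low values were coarsest in WT. All 10 oocyte markers were above 0 in every library, and their sum lay between 15941 and 17727 FPKM for WT, between 11630 and 13202 for AmcKO, between 8745 and 10019 for MUT and between 7987 and 11043 for GcKO. Of the 10, 4 were called lower in MUT and 3 in GcKO, beside 11.3% and 11.4% of all transcripts. Of the 4759 transcripts with a mean of at least 5 FPKM, fitted alone, 1362 and 1397 were called lower. Fold changes were below 0 for 9 of them in MUT and 7 in GcKO, with Nobox above 0 in both (0.28 and 0.44). Of 12 granulosa cell markers, 4 (Amh, Amhr2, Foxl2 and Ptx3) were at 0 throughout. The list summed to between 17.6 and 23.1 FPKM for WT, 11.4 and 22.7 for AmcKO, 14.7 and 26.8 for MUT, and 14.5 and 28.7 for GcKO. Of the 6 tested, 2 were called higher in MUT than in WT, beside 9.46% of all transcripts. They were Inha and Hsd17b1 (2.15 and 1.45 on the log2 scale). Both were at 0 in WT, so they passed the filter on low values only through other groups. The other 4 were not called, and 3 of these were below 0. Among them was Cyp19a1 (-0.68), which at 17.4 FPKM made up most of the WT sum. The part of the cells these lists mark in the results was not tested. Dpagt1 was listed at 0 in all WT and AmcKO libraries, at 0.88, 0.41 and 0.98 FPKM in MUT, and at 0, 0.37 and 0 FPKM in GcKO, so that it does not check the labels.

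In WT oocytes the linker histone and H3.3 messages were far above the H2A variant messages. H1foo stood at 9196 ± 353 FPKM (SD, n = 3), rank 19 of all genes of the table by mean. H3f3b followed at 4511 ± 275 FPKM, rank 51, and H3f3a at 2505 ± 69.4 FPKM, rank 95. Npm2 stood at 672 ± 45.2 FPKM, rank 287. The H2A variants were lower by more than an order of magnitude, with H2afj at 58.3 ± 8.90, H2afz at 47.6 ± 14.3 and H2afx at 37.7 ± 15.2 FPKM, and the ranges of H2afz overlapped those of both other variants. Hira, which codes for the scaffold of the H3.3 deposition complex, was listed at 0, 0.41 and 0.35 FPKM, with 64.4% of its windows of 50 bases shared with the transcript of another gene, Gm28539. The 8 members together made up 1.25 to 1.47% of the FPKM sum of each of the 12 libraries, and H1foo alone 53.4 to 67.0% of the members' sum.

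**Figure D1:**
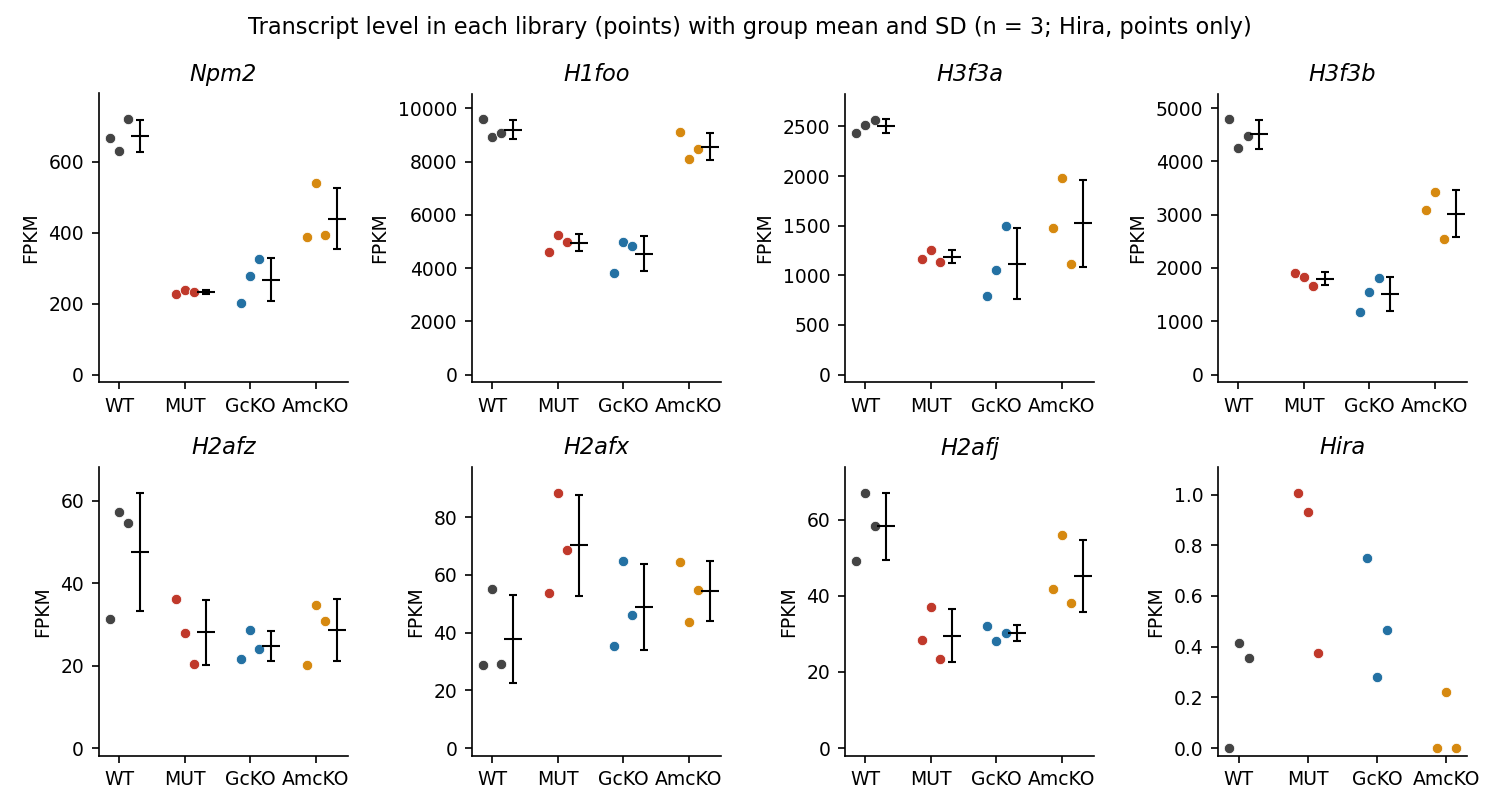
FPKM of each member (vertical axis, from 0, a separate scale per gene) in the 3 libraries of each group (points, in the order of replicate number), with the group mean and SD beside them, except for Hira, whose values include 0. The 3 MUT and 3 GcKO libraries lie below all WT libraries for Npm2, H1foo, H3f3a, H3f3b and H2afj, while H2afx is highest in MUT replicate 2, at 88.6 FPKM.

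The first comparison asked how the messages of an oocyte with D166G DPAGT1 differ from WT. In MUT oocytes the messages of Npm2, H1foo, both H3.3 genes and H2afj were lower than in WT, by 1.86 to 2.89 times in mean FPKM, while that of H2afx was higher. Of the 8 members, 5 were called lower and 1 higher by limma at a Benjamini-Hochberg adjusted p under 0.05, and the middle of their log2 fold changes was -0.93 (median). Among the 11233 transcripts tested, 20.8% were called, 11.3% lower and 9.46% higher, and the median was 0.12. In a fit of only the 4759 transcripts with a mean of at least 5 FPKM, 1362 were called lower and 760 higher. Their median was -0.12, and of the 7 members among them 6 were called lower and 1 higher. A fall was thus more common among abundant transcripts than among all. The groups did not overlap for 5 members, all lower in MUT, against 16.9% of all transcripts lower and 20.2% higher without overlap. All 8 members passed the filter on low values, Hira only through MUT replicate 1. In pooled oocytes, a lower level in each oocyte and fewer oocytes with the message cannot be told apart.

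Npm2 had the strongest fall. Its level was 666, 630 and 720 FPKM in WT replicates 4 to 6, and 228, 237 and 232 FPKM in MUT replicates 1 to 3. Every MUT library was below every WT library, and the MUT libraries differed from each other by less than the WT ones did. The log2 fold change was -1.53 ± 0.18 (SE, limma, adjusted p = 0.000124).

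H3f3b fell more than its partner gene H3f3a. In WT, H3f3b stood at 4796, 4248 and 4487 FPKM, and in MUT at 1898, 1834 and 1666 FPKM. H3f3a stood at 2431, 2515 and 2569 FPKM in WT and at 1168, 1259 and 1138 FPKM in MUT. Neither gene had a MUT value inside the WT range. The log2 fold changes were -1.33 ± 0.17 for H3f3b (limma, adjusted p = 0.000202) and -1.08 ± 0.23 for H3f3a (limma, adjusted p = 0.00440). H3f3a shared 30.3% of its windows of 50 bases with transcripts of 41 other genes, among them the processed copy Gm12657, and H3f3b 10.6%, so their values are less certain than those of Npm2 and H1foo, which shared none.

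H1foo, the most abundant member, went from 9595, 8922 and 9071 FPKM in WT to 4603, 5236 and 4989 FPKM in MUT. Its log2 fold change of -0.90 ± 0.15 (limma, adjusted p = 0.000870) was the smallest among the members called lower. H2afj, a replacement H2A gene, went from 49.3, 67.1 and 58.4 FPKM to 28.3, 37.0 and 23.4 FPKM, again without overlap (-0.97 ± 0.21, limma, adjusted p = 0.00490).

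H2afx codes for H2AX, the variant that is phosphorylated around DNA double-strand breaks. It stood at 28.7, 55.2 and 29.2 FPKM in WT and at 53.8, 88.6 and 68.7 FPKM in MUT, so that MUT replicate 1 lay just below WT replicate 5. The log2 fold change was 0.92 ± 0.29 (limma, adjusted p = 0.0357). The call was lost without WT replicate 4 (0.76), WT replicate 6 (0.77), MUT replicate 2 (0.74) or MUT replicate 3 (0.92), so it rests on single libraries. H2afx shared 9.66% of its windows with other transcripts, histone cluster genes among them.

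H2afz, which codes for the promoter variant H2A.Z, was at 31.2, 57.2 and 54.5 FPKM in WT and at 36.1, 27.9 and 20.3 FPKM in MUT. The difference of -0.73 ± 0.28 did not pass (limma, adjusted p = 0.0803), but it did when WT replicate 4, the lowest WT value, was left out (limma, adjusted p = 0.0242). Windows shared with other transcripts made up 69.6% of H2afz. Hira was listed at 1.01, 0.93 and 0.38 FPKM in MUT, a difference of 0.49 ± 0.28 on the log2(FPKM + 1) scale that did not pass (limma, adjusted p = 0.243).

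The second comparison asked what deletion of Dpagt1 in the oocyte alone does to the same messages. In GcKO oocytes 6 of 8 members were called lower by limma and none higher, with log2 fold changes whose median was -0.97, where 20.2% of all transcripts were called, 11.4% lower and 8.71% higher, with a median of 0.12. In the fit of only the 4759 transcripts with a mean of at least 5 FPKM, 1397 were called lower and 705 higher, with a median of -0.16. The 6 members called lower did not overlap with WT, against 16% of all transcripts that were lower and 18.2% that were higher without overlap. GcKO and MUT share the WT libraries as control.

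H3f3b fell most in GcKO oocytes, to 1176, 1550 and 1810 FPKM in replicates 1 to 3 (-1.60 ± 0.17, limma, adjusted p = 9.2e-05). Npm2 was at 202, 276 and 325 FPKM (-1.35 ± 0.18, limma, adjusted p = 0.000247). H3f3a was at 792, 1057 and 1501 FPKM (-1.21 ± 0.23, limma, adjusted p = 0.00206). In all 3 genes GcKO replicate 1 was lowest and replicate 3 highest, and the GcKO libraries were spread more widely than the MUT ones. GcKO replicate 1 also had the lowest FPKM sum of all libraries.

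H1foo was at 3800, 4993 and 4830 FPKM in GcKO oocytes (-1.03 ± 0.15, limma, adjusted p = 0.000353). H2afj was at 32.2, 28.2 and 30.3 FPKM (-0.91 ± 0.21, limma, adjusted p = 0.00684). Both genes were thus below WT in all 3 libraries. H2afz, at 21.6, 28.7 and 23.9 FPKM, passed the test in GcKO (-0.88 ± 0.28, limma, adjusted p = 0.0390). This call was lost without any of WT replicates 5 (-0.73) and 6 (-0.76), GcKO replicates 1 (-0.79), 2 (-0.99) and 3 (-0.86), or MUT replicate 2 (-0.88, with a new estimate of the spread).

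H2afx was at 35.4, 64.8 and 46.2 FPKM in GcKO, which overlapped with WT. Its log2 fold change of 0.39 had a 95% interval from -0.23 to 1.00, which includes 0 and also a 2-fold rise. Hira was listed at 0.75, 0.28 and 0.47 FPKM and was not called (0.26 ± 0.28).

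**Figure D2:**
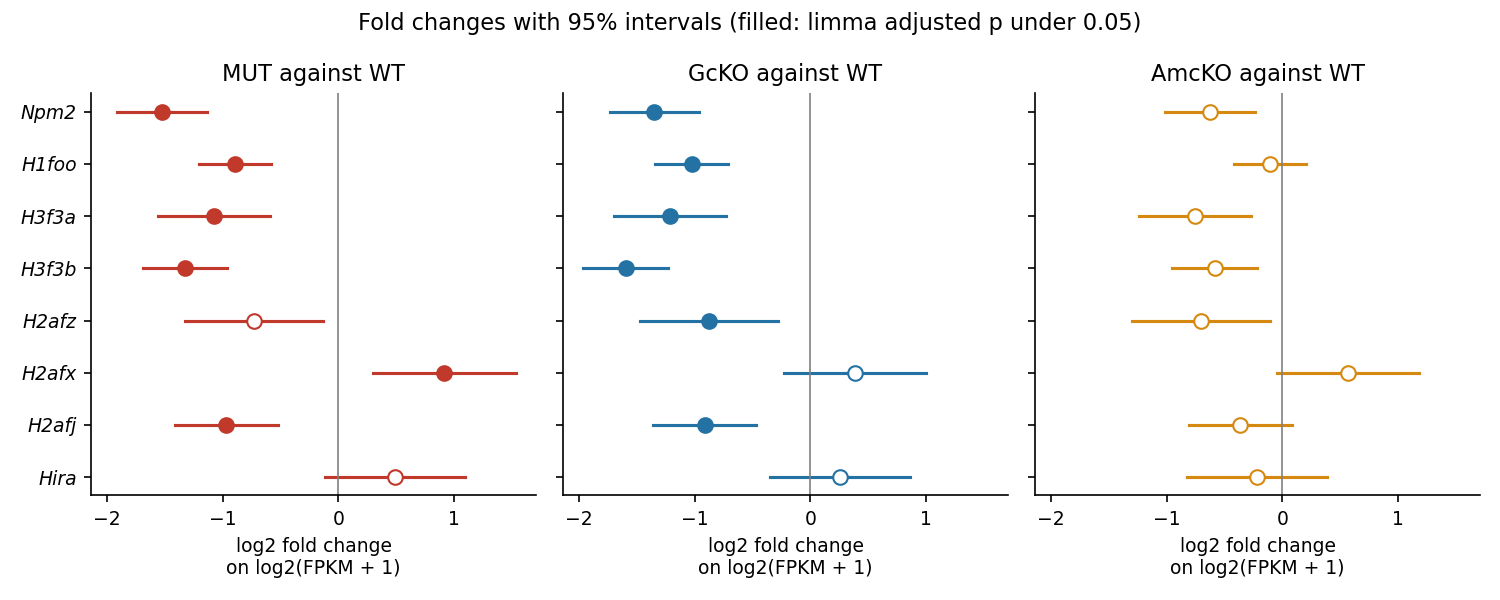
Log2 fold changes of the members (rows) against WT in MUT, GcKO and AmcKO oocytes (panels), on the log2(FPKM + 1) scale, with 95% intervals as lines. Filled points passed the limma test, 6 in MUT, 6 in GcKO and 0 in AmcKO, and H2afx is the one filled point to the right of 0.

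The mutant and the oocyte knockout were then compared with each other. By limma 0 of 8 members were called between GcKO and MUT, 0 at an unadjusted p under 0.05, where 0.205% of all transcripts were called and 6.6% had an unadjusted p under 0.05. All 8 genes had overlapping ranges, where 6.87% of all transcripts were lower and 6.42% higher without overlap. The differences ran from -0.53 for H2afx to 0.18 for Npm2. The interval for H2afx, from -1.15 to 0.084, and that for H3f3b, -0.27 with limits of -0.64 and 0.096, include lower levels in GcKO as well as 0.

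The third comparison asked about oocytes of females in which deletion of Dpagt1 was aimed at granulosa cells, not at the oocyte. In AmcKO oocytes limma called 0 of 8 members, as 0.214% of all transcripts were called. At an unadjusted p under 0.05 it found 4 (Npm2, H3f3a, H3f3b and H2afz), all with lower values, against 15.6% of all transcripts. The ranges did not overlap with WT for 3 members, all lower in AmcKO, where 8.61% of all transcripts were lower and 9.22% higher without overlap.

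Npm2 was at 387, 539 and 393 FPKM in AmcKO replicates 4 to 6, all between the WT and the MUT values. Its difference from WT was -0.63 with a 95% interval from -1.01 to -0.24 (limma, adjusted p = 0.147). As deposited, H3f3b was likewise intermediate at 3092, 3421 and 2553 FPKM (-0.59, interval -0.95 to -0.22, limma, adjusted p = 0.148), and H3f3a was at 1472, 1984 and 1115 FPKM (-0.76, interval -1.24 to -0.27, limma, adjusted p = 0.156). AmcKO replicate 6 was the lowest library for both H3.3 genes and had the lowest FPKM sum of its group.

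H1foo did not share this. It was at 9110, 8089 and 8480 FPKM in AmcKO, which overlapped with WT, and its difference of -0.10 had an interval from -0.42 to 0.21. H2afj was at 41.8, 56.0 and 38.1, H2afz at 20.1, 34.7 and 30.7 and H2afx at 64.6, 43.8 and 54.8 FPKM, each overlapping with WT. Hira was listed at 0 in AmcKO replicates 4 and 6 and at 0.22 FPKM in replicate 5.

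Set directly against AmcKO, 3 members (Npm2, H1foo and H3f3b) were called lower in MUT by limma and 3 (Npm2, H1foo and H3f3b) in GcKO, both against the same AmcKO libraries, where 6.49% and 5.46% of all transcripts were called, 5.07% and 4.79% lower. H1foo was lower by -0.79 in MUT (limma, adjusted p = 0.00592) and by -0.92 in GcKO (limma, adjusted p = 0.00284). Npm2 differed by -0.90 in MUT (limma, adjusted p = 0.00945) and by -0.72 in GcKO (limma, adjusted p = 0.0331). H3f3b differed by -0.74 in MUT (limma, adjusted p = 0.0190) and by -1.01 in GcKO (limma, adjusted p = 0.00400). H3f3a, at -0.32 and -0.46, did not pass in either. None of these 6 calls held under quantile normalization, and with libraries scaled to the same FPKM sum only that of H3f3b in GcKO did (-0.27, limma, adjusted p = 0.0228). H3f3a (0.38), H2afx (1.04) and Hira (0.90) were then called higher in MUT, beside 2405 of all 11233 transcripts. The median of all transcripts was 0.52 there, which H3f3a did not reach. Hira passed the filter on low values only through MUT replicate 1, so its call is no test. With 1 library left out, the call of H3f3b in MUT was lost without MUT replicate 1, 2 or 3 or AmcKO replicate 4 or 5 (highest adjusted p by limma 0.0932), and that of Npm2 in GcKO without MUT replicate 1, 2 or 3, GcKO replicate 1 or 2 or AmcKO replicate 4 or 5 (highest adjusted p by limma 0.122). The order of the group means was WT, AmcKO, MUT, GcKO for H1foo, H3f3a and H3f3b, and WT, AmcKO, GcKO, MUT for Npm2. WT and AmcKO did not differ past the test in any of these genes, nor did MUT and GcKO, and H3f3a did not differ between AmcKO and either of those.

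The call for H3f3b between MUT and AmcKO was lost without MUT replicates 1 (-0.78), 2 (-0.75) or 3 (-0.69) or AmcKO replicates 4 (-0.72) or 5 (-0.64). That for Npm2 between GcKO and AmcKO was lost without GcKO replicates 1 (-0.54) or 2 (-0.76), AmcKO replicates 4 (-0.81) or 5 (-0.57), or any MUT library (-0.72).

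The FPKM sums of MUT and GcKO were well below that of WT, and the direction of several members depended on how the libraries were scaled. When each library was scaled to the same FPKM sum, the median over all transcripts tested moved from 0.12 to 0.69 in MUT and to 0.72 in GcKO, and the split of calls from 1269 lower and 1063 higher to 253 and 4639 in MUT, and from 1286 and 978 to 241 and 4765 in GcKO. Npm2 stayed lower in both (-0.53, limma, adjusted p = 0.00156 in MUT, and -0.31, limma, adjusted p = 0.0282 in GcKO), as did H3f3b (-0.33, limma, adjusted p = 0.00327, and -0.56, limma, adjusted p = 0.000217). H2afx was higher in both (1.89, limma, adjusted p = 0.000356, and 1.40, limma, adjusted p = 0.00191).

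On that scale the fall of H1foo was gone. As a share of the library's FPKM sum, H1foo made up 0.762 ± 0.021% in WT, 0.819 ± 0.057% in MUT, 0.770 ± 0.057% in GcKO and 0.877 ± 0.128% in AmcKO (SD, n = 3 each), and its fold change was 0.10 in MUT and 0.012 in GcKO. H2afj was at 0.0047 and 0.10, and H3f3a at -0.079 and -0.18, none of them called. Relative to the median of all transcripts under the same scaling, H1foo was at -0.59 and -0.71, H3f3a at -0.77 and -0.90, and Npm2 at -1.23 and -1.04. Quantile normalization, which gives all libraries the same distribution, left Npm2 lower in both (-0.70 and -0.40), H2afx higher in MUT (1.21) and H2afj lower in MUT (-0.71, limma, adjusted p = 0.0308), while H2afj in GcKO (-0.60) was not called and H3f3b was at -0.041 in MUT and -0.30 in GcKO, with a call in GcKO only. Relative to the median, H1foo was then at 0.35 in MUT and 0.25 in GcKO, H3f3a at 0.0094 and -0.18, and Npm2 at -0.72 and -0.43.

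**Figure D3:**
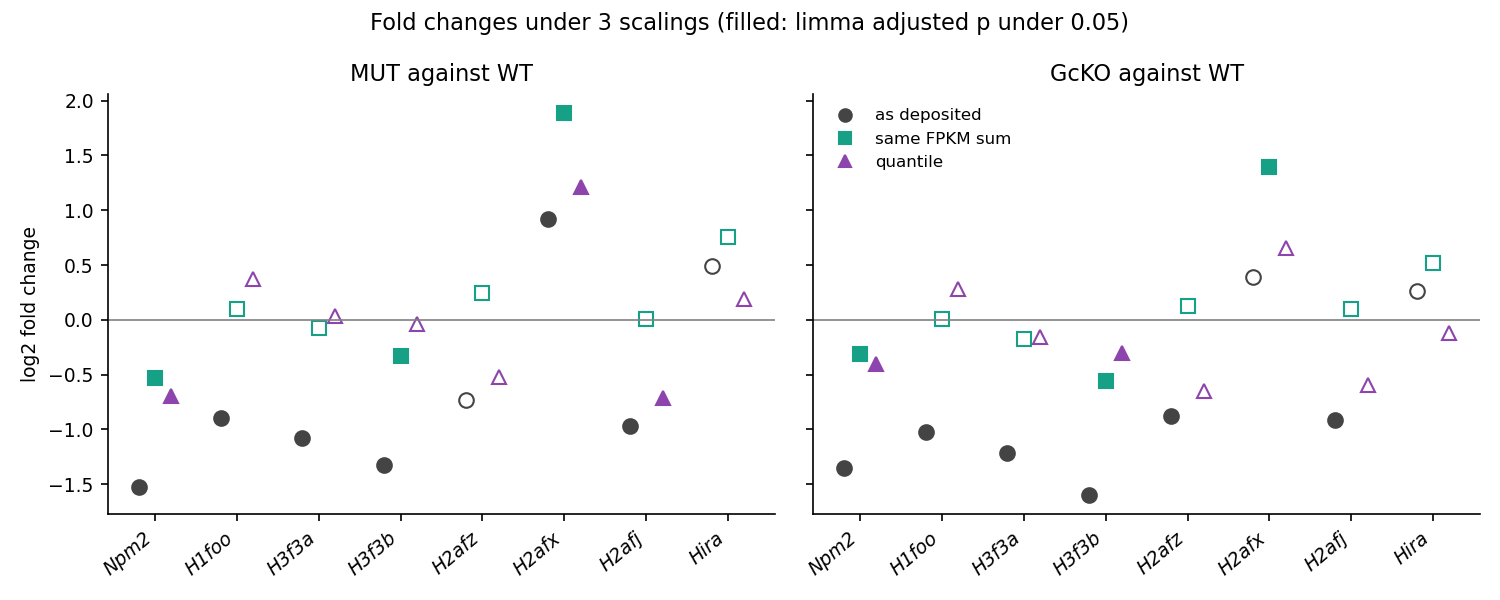
Log2 fold change of each member in MUT and in GcKO against WT (panels) with the values as deposited (circles), scaled to the same FPKM sum (squares) or quantile normalized (triangles). Filled symbols passed the limma test, and Npm2 is filled below 0 under all 3 scalings in both panels, whereas H1foo is filled as deposited only.

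Ratios of 2 messages within a library do not change when the library is multiplied by a factor, as in scaling to the same FPKM sum. Quantile normalization does change them. It put H3f3b at -0.041 and H3f3a at 0.039 in MUT against WT, closer together than the deposited values do. The 6 ratios below were picked after the values were seen, so they are a description with no test. The H3f3b to H3f3a ratio was 1.97, 1.69 and 1.75 in WT, 1.62, 1.46 and 1.46 in MUT, 1.48, 1.47 and 1.21 in GcKO, and 2.10, 1.72 and 2.29 in AmcKO. Its values in MUT and GcKO did not reach the lowest value in WT or AmcKO.

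The H2afx to H2afj ratio was 0.64 ± 0.17 in WT, 2.41 ± 0.52 in MUT, 1.64 ± 0.61 in GcKO and 1.25 ± 0.41 in AmcKO (SD, n = 3 each). The 3 MUT libraries and the 3 GcKO libraries were all above the highest WT library, whereas AmcKO overlapped with WT. The H2afx to H2afz ratio was 0.81 ± 0.24, 2.68 ± 1.03, 1.95 ± 0.31 and 2.09 ± 1.01 in the same order, with every library of the other groups above WT. The H2afj to H2afz ratio, with means of 1.27, 1.09, 1.25 and 1.64, overlapped between WT and each other group.

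The Npm2 to H1foo ratio was 0.0731 ± 0.0054 in WT, 0.0471 ± 0.0021 in MUT, 0.0586 ± 0.0076 in GcKO and 0.0518 ± 0.0130 in AmcKO (SD, n = 3 each), and every other library was below the lowest WT one. The ratio of Npm2 to Npm1, its ubiquitous relative, was 1.48 ± 0.059 in WT, 1.04 ± 0.14 in MUT, 1.38 ± 0.26 in GcKO and 1.52 ± 0.37 in AmcKO, and overlapped with WT in GcKO and AmcKO but not in MUT.

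**Figure D4:**
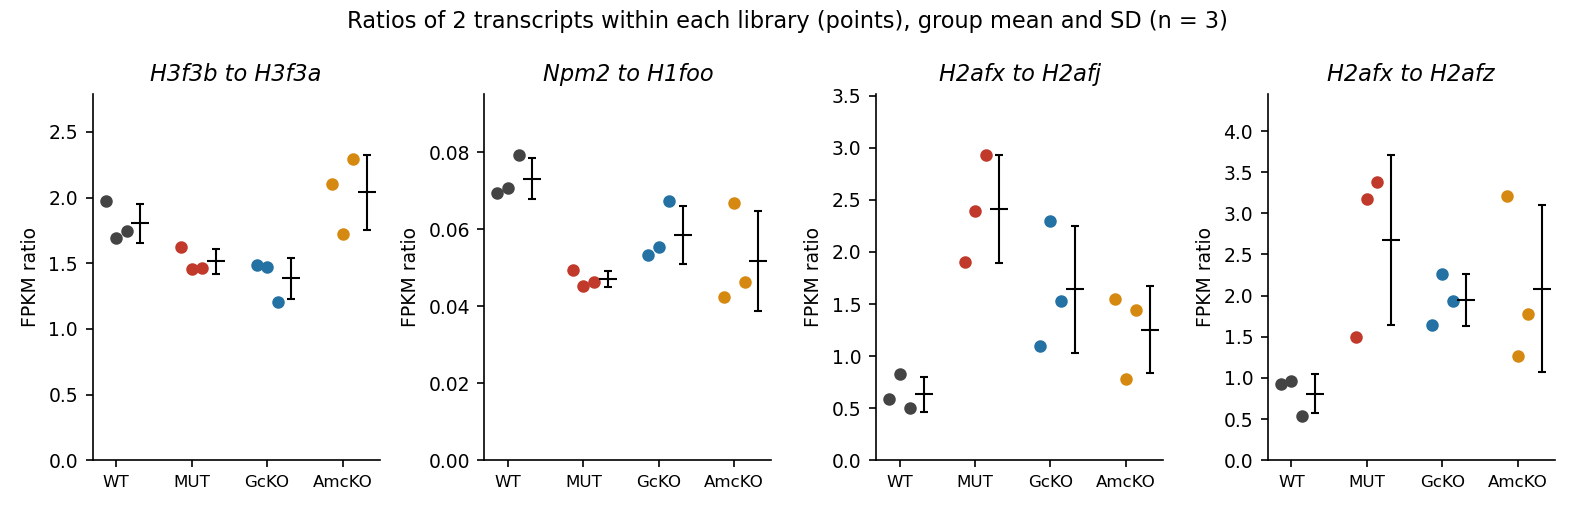
Ratio of the FPKM of 2 members within each library (points, vertical axis from 0) by group, with the group mean and SD (n = 3) beside the points, for 4 of the 6 ratios described, with no test. The H3f3b to H3f3a ratio is at most 1.62 in all MUT and GcKO libraries and at least 1.69 in all WT and AmcKO libraries.

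Across the 12 libraries, the profiles of Npm2 and H3f3b were the closest of any 2 members except Hira, with a root mean square difference of 0.188 on the centred log2 scale. H2afx was farthest from all others, at 0.754 to 0.974. Among 3420 genes with a mean of at least 10 FPKM, those with profiles nearest to Npm2 were Tceb1, which codes for elongin C (0.0798), Myl12a, Sptlc2, Ndufaf4 and Psma7, a proteasome subunit (0.111). Nearest to H3f3b were Rfpl4 (0.0782), Pfdn4, a prefoldin subunit, Txndc9, 0610009B22Rik and Zfp97 (0.103).

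Genes that handle these histones were taken as 5 lists. Of their 47 genes (chaperones and deposition factors of H3, exchange complexes of H2A.Z, nucleoplasmin relatives and H2A-H2B chaperones, other replacement histones, and the kinases and reader of H2AX), 46 were in the table and 42 passed the filter. In MUT, limma called 3 lower (7.14%) and 8 higher (19%), beside 11.3% and 9.46% of all transcripts, and in GcKO 4 lower (9.52%) and 9 higher (21.4%), beside 11.4% and 8.71%. Among the genes called higher, Ino80 and Mdc1 had means of 0.084 and 0.155 FPKM in WT. They passed the filter only through other groups, which favours such calls. The median log2 fold changes were 0.45 and 0.48, beside 0.12 for all transcripts in each. These fold changes and calls are from the deposited values. Under other scalings, where several members turned, the list genes other than Npm1 were not examined. In AmcKO limma called 0 of the 42, beside 0.214% of all transcripts. It found 10 at an unadjusted p under 0.05, beside 15.6% of all transcripts.

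Among the 13 H3 chaperones and deposition factors, 1 was lower and 1 higher in MUT, and 1 lower and 2 higher in GcKO, beside 11.3% lower and 9.46% higher of all transcripts in MUT and 11.4% and 8.71% in GcKO. Rbbp7, a histone-binding subunit of several complexes and the most abundant of the list, was lower in both as deposited (-0.46 and -0.60). Atrx, a remodeller that deposits H3.3 at repeats with Daxx, was higher in both (1.12 and 1.02), and Chaf1a, a subunit of the replication-coupled chaperone CAF-1, passed in GcKO (0.88). Asf1a and Asf1b, which hand H3 to HIRA and CAF-1, were at 204 and 233 FPKM in WT and did not pass in either group (-0.020 and 0.15 in MUT).

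Of the 13 H2A.Z exchange genes tested out of 15, 1 was lower and 4 higher in MUT (11.3% and 9.46% of all transcripts), and 1 lower and 3 higher in GcKO (11.4% and 8.71%). Znhit1, a subunit of the SRCAP complex, was lower in both as deposited (-1.05 and -1.10). The remodelling ATPases Ep400 (1.05 and 1.24) and Ino80 (1.20 and 1.14) and the acetyl-lysine reader Yeats4 (0.83 and 0.78) were higher in both, and Vps72, an H2A.Z chaperone, in MUT (0.93). Except for Vps72 and Yeats4, the higher genes of this list were under 10 FPKM, where values may have been coarsest in WT. Ino80, at a mean of 0.084 FPKM in WT, passed the filter only through other groups, so its calls are no test.

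Among the 8 nucleoplasmin relatives and H2A-H2B chaperones, Npm1 was lower as deposited (-1.01 in MUT, limma, adjusted p = 0.0094, and -1.23 in GcKO, limma, adjusted p = 0.0030), from 456 FPKM in WT to 226 and 195 FPKM. As a share of the FPKM sum, Npm1 was at 0.0378 ± 0.0033% in WT, 0.0375 ± 0.0060% in MUT and 0.0332 ± 0.0051% in GcKO, and Npm2 at 0.0557 ± 0.0026%, 0.0384 ± 0.0011% and 0.0448 ± 0.0028%. Nap1l1, an H2A-H2B chaperone, was higher in both (1.32 and 1.35), and Supt6, a histone chaperone of transcription elongation, in GcKO (1.08). Of the 6 other replacement histones tested, H1f0, a linker histone of cells that no longer divide, was higher in both (1.00 and 0.92). The oocyte's own H1foo was lower in both as deposited, but not with the same FPKM sum. H2afy, which codes for macroH2A1, was higher in MUT (1.62), and H2afv, which codes for another H2A.Z, was lower in GcKO (-0.97). Of the 2 kinase and reader genes tested, Mdc1, which binds phosphorylated H2AX, was higher in GcKO (1.15). Nap1l1, Supt6, H1f0, H2afy and Mdc1 were all under 10 FPKM in WT, where 1 fragment may be worth most. Mdc1, at a mean of 0.155 FPKM in WT, passed the filter only through other groups, so its call is no test. These differences between the lists and the members were not tested as such.

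**Figure D5:**
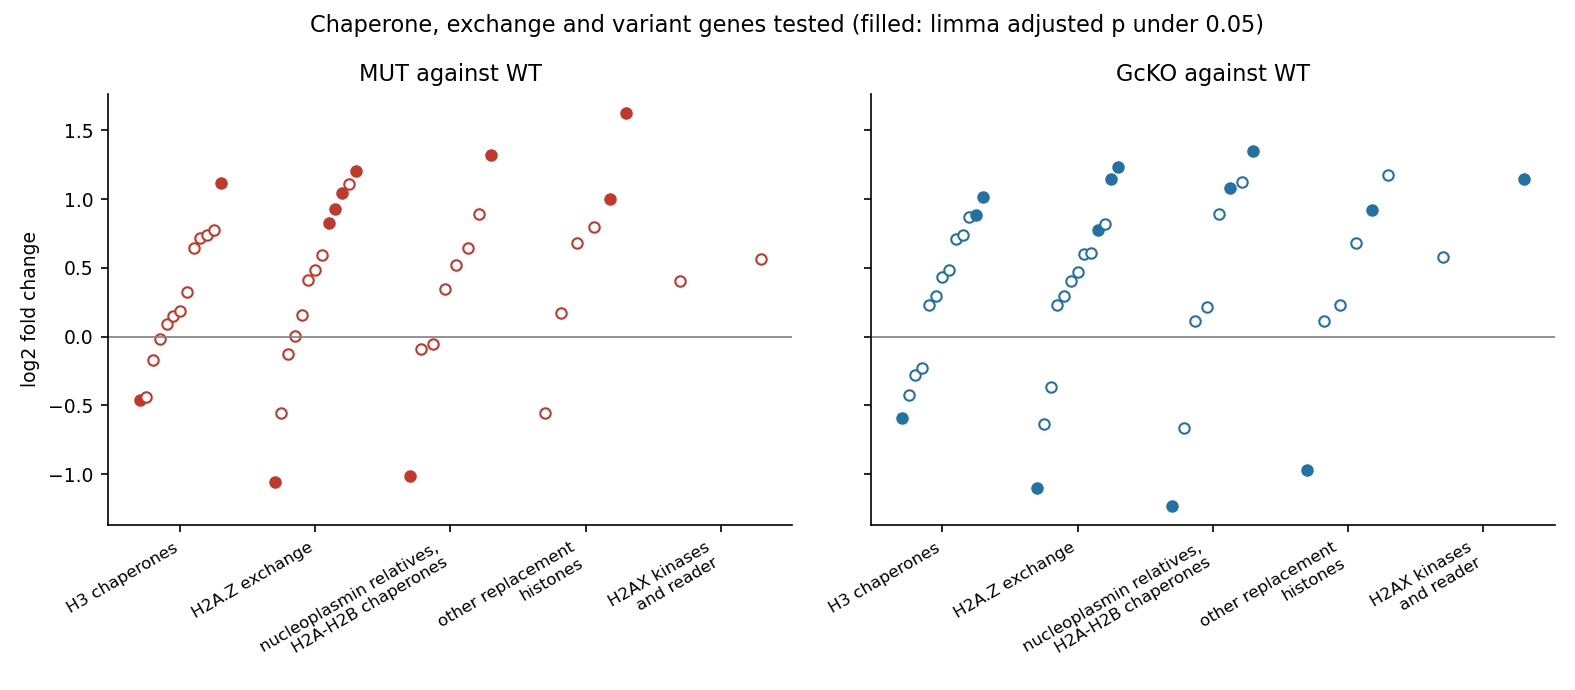
Log2 fold changes in MUT and in GcKO against WT (panels) of the 42 genes tested in the 5 lists (horizontal axis), ordered by value within a list. Filled points passed the limma test, 3 below and 8 above 0 in MUT, and 4 below and 9 above 0 in GcKO.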

How the data were processed

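Smart-seq2 cDNA of 20 oocytes per library was sequenced by the authors as paired reads of 150 nt. The authors mapped the reads with TopHat2 2.0.13 to the mm10 genome, and deposited 1 FPKM value per gene and library from Cufflinks 2.2.1 and Cuffnorm, the tools named in the submitters' processing notes. The authors' own columns of comparisons between groups (log2 fold changes and p- and q-values) were not used. The labels name different library kits in different places. From the FPKM values, log2(FPKM + 1) was fitted with limma 3.58.1 in R 4.3.3 with a variance trend, all 12 libraries in 1 fit with 8 residual degrees of freedom, for the 11233 genes with at least 1 FPKM in at least 1 library. Calls used a Benjamini-Hochberg adjusted p under 0.05 over all genes tested, and fold changes of low genes are understated on this scale. Members and lists were chosen with earlier results of these data known. The text names the members, list genes called in MUT or GcKO against WT, and the 5 nearest profiles of Npm2 and H3f3b; Asf1a and Asf1b were added after their values were seen. Ratios were also added then, as a description. Gene models were GENCODE's for GRCm38, promoters RefSeq's. Python 3.11.15 with pandas 2.3.3 was used for tables.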

Additional observations from a re-analysis of the deposited data

How the results depend on the processing

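The alternatives were a pseudocount of 0.1, no filter, a mean of at least 5 FPKM, the same FPKM sum, median-of-ratios scaling, quantile normalization, no variance trend, only the 2 groups compared, a fold change over 2, and each library left out. In MUT against WT 6 members were called, and 3 with the same FPKM sum, 3 with quantile normalization and 3 with a fold change over 2. In GcKO against WT 6 were called, and 3 with the same FPKM sum and 2 with quantile normalization. In MUT against AmcKO 3 were called, 0 with quantile normalization, 1 without the variance trend and 0 with a fold change over 2. With the same FPKM sum 3 others were called, all higher, as were 2405 of all 11233 transcripts. Of those 3 members, Hira passed the filter only through MUT replicate 1, so its call is no test. In GcKO against AmcKO 3 were called, 1 with the same FPKM sum, 0 with quantile normalization, 0 with only the 2 groups compared and 1 with a fold change over 2. With any library left out, these counts were 5 to 6 against WT and 2 to 3 against AmcKO. For AmcKO against WT and GcKO against MUT, 0 members were called under every alternative.

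With the same FPKM sum, the log2 fold change turned for H1foo (0.10 in MUT, 0.012 in GcKO, 0.19 in AmcKO against WT), H2afz (0.24 in MUT, 0.13 in GcKO), H2afj (0.0047 in MUT, 0.10 in GcKO), and, against AmcKO, H3f3a (0.38 in MUT, 0.28 in GcKO), H2afz (0.65 and 0.54), H2afj (0.077 and 0.17), H2afx in GcKO (0.55) and Npm2 in GcKO (0.017). With quantile normalization it turned for H1foo (0.37 in MUT, 0.28 in GcKO, 0.24 in AmcKO against WT, and 0.13 in MUT and 0.033 in GcKO against AmcKO), H3f3a (0.039 in MUT against WT, 0.40 in MUT and 0.20 in GcKO against AmcKO), H3f3b in MUT (0.15), H2afz in MUT (0.049) and H2afx in GcKO (0.026) against AmcKO, and Hira in GcKO against WT (-0.12). The scalings differ by construction in what they hold constant. With 1 library left out, uncalled differences between GcKO and MUT ranged over 0 for 3 members, from -0.38 to 0.085 for H3f3a, -0.36 to 0.040 for H2afz and -0.097 to 0.22 for H2afj. Likewise, against AmcKO, H2afz in MUT ranged from -0.25 to 0.18 and H2afx in GcKO from -0.40 to 0.026.

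The call of H2afx in MUT was also lost without the filter or the trend, as was that of H2afz in GcKO, while H2afz passed in MUT at a mean of at least 5 FPKM. Hira was not tested at that mean, without MUT replicate 1 or in fits without MUT. Over the alternatives, the number of all transcripts called ranged from 1473 to 4892 in MUT (2332 in the report), 1353 to 5006 in GcKO (2264) and 7 to 135 in AmcKO (24) against WT, 9 to 75 in GcKO against MUT (23), and 354 to 2570 in MUT (729) and 115 to 2622 in GcKO (613) against AmcKO, the highest with the same FPKM sum except in AmcKO against WT, where it was without AmcKO replicate 5. Label numbers are shared by WT and AmcKO and by MUT and GcKO. Deviations of same-numbered libraries from their group means had correlations of only -0.041 to 0.041. Because group means were removed, these correlations cannot show a shift common to all WT and AmcKO libraries or to all MUT and GcKO libraries. Such a shift cannot be told apart from the groups. With the replicate block, fitted on the 2 groups, 0 members were called in either pair, and 7 transcripts in place of 24 between AmcKO and WT. No paired analysis was possible for MUT or GcKO against WT or AmcKO because those groups share no number. FPKM without counts and 3 libraries a group limit what can be seen of Hira and the H2A variants.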
